A study of Mus musculus with 10 samples.

Results

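The 10 genes described here mark the wall of brain blood vessels. *Cldn5*, *Pecam1*, *Ly6c1*, *Flt1*, *Slco1a4*, *Slc2a1* and *Abcb1a* mark endothelial cells, and *Pdgfrb*, *Rgs5* and *Acta2* mark the pericytes and smooth muscle cells around them, together called mural cells. They were chosen by name as known markers, with earlier results of these data known, and all 10 were found among the 22000 genes of the count table. Bulk RNA-seq of the prefrontal cortex (PFC) was available from 5 *Zbtb16* KO and 5 wild-type (WT) mice, 1 library per mouse. All mice were labelled as male and 7 weeks old. The KO mice, B6.C3-Zbtb16lu/J, were homozygous for the luxoid (lu) allele, a germline nonsense point mutation that every cell carries, so no cell type was targeted. These mice are also smaller than WT mice and have skeletal malformations. The comparison addressed whether the vessel transcripts of the PFC differed between *Zbtb16* KO and WT mice.

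In brain capillaries, endothelial cells are sealed by tight junctions, carry few vesicles and move nutrients by dedicated carriers, which makes the blood-brain barrier. Pericytes are embedded in the wall of capillaries and are recruited by endothelial PDGF-B acting on the receptor PDGFRβ, while smooth muscle cells surround arterioles. Wnt ligands from neural cells, read through Frizzled receptors on the endothelium, build and maintain the barrier. In bulk tissue, fewer cells of a type and less RNA per cell cannot be told apart.

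Each library held 30220122 to 51231439 counts on genes, and a count of 3, the floor used here, came to 0.058 to 0.0997 CPM (counts scaled to library size). *Zbtb16* itself was measured at 47.4 ± 4.96 CPM in KO mice and 79.0 ± 7.23 CPM in WT mice (mean ± SD, n = 5 each), with every KO mouse below every WT mouse (log2 fold change -0.67, edgeR adjusted p = 2.80e-05). KO mouse 3, labelled male, had 1 count on 4 Y-linked genes, against 4376 to 8182 in the other mice, and results that rest on it are also given without it. The RNA integrity number (RIN) fell into separate classes, with 4 mice under 9 (KO mice 3 and 5, WT mice 3 and 4) and 6 mice at 9.5 or above.

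None of the 10 vessel genes passed the threshold between the genotypes. The test was edgeR's quasi-likelihood test with 3 surrogate variables, which are weights per mouse that stand for unrecorded differences between libraries, and a gene was called at a Benjamini-Hochberg adjusted p under 0.05. The first variable was largest for KO mouse 5, at 0.87, with the other mice between -0.30 and 0.11. The second was largest for KO mouse 2, at 0.73, with the others between -0.32 and 0.39. Across all 14344 genes tested, 121 were called (0.844%), with KO above WT for 86 (0.6%) and below for 35 (0.244%). With the same surrogate variables, DESeq2 called 233 of the 14344 genes and limma 8, and each called 0 of the 10 vessel genes. At an unadjusted p under 0.05, 2 of the 10 passed, *Slc2a1* and *Flt1*, against 10.6% of all tested genes. The genotypes overlapped in CPM for all 10, whereas 1.58% of the tested genes did not overlap. The median log2 fold change of KO against WT over the 10 genes was -0.03, beside -0.004 over all tested genes, with 6 below 0 and 4 above. The 95% intervals of the log2 fold change reached between 0.13 and 0.35 to either side of the estimate with 5 mice a genotype. An estimate beyond the reach of its own interval has an unadjusted p under 0.05, and the adjusted threshold asks for more. *Slc2a1* and *Flt1* lay beyond theirs and were not called, so differences larger than these reaches could also have been missed. All 10 genes passed the filter on low counts, with at least 150 counts in every mouse, so the endothelial and mural markers were present in each library.

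**Figure D1:**
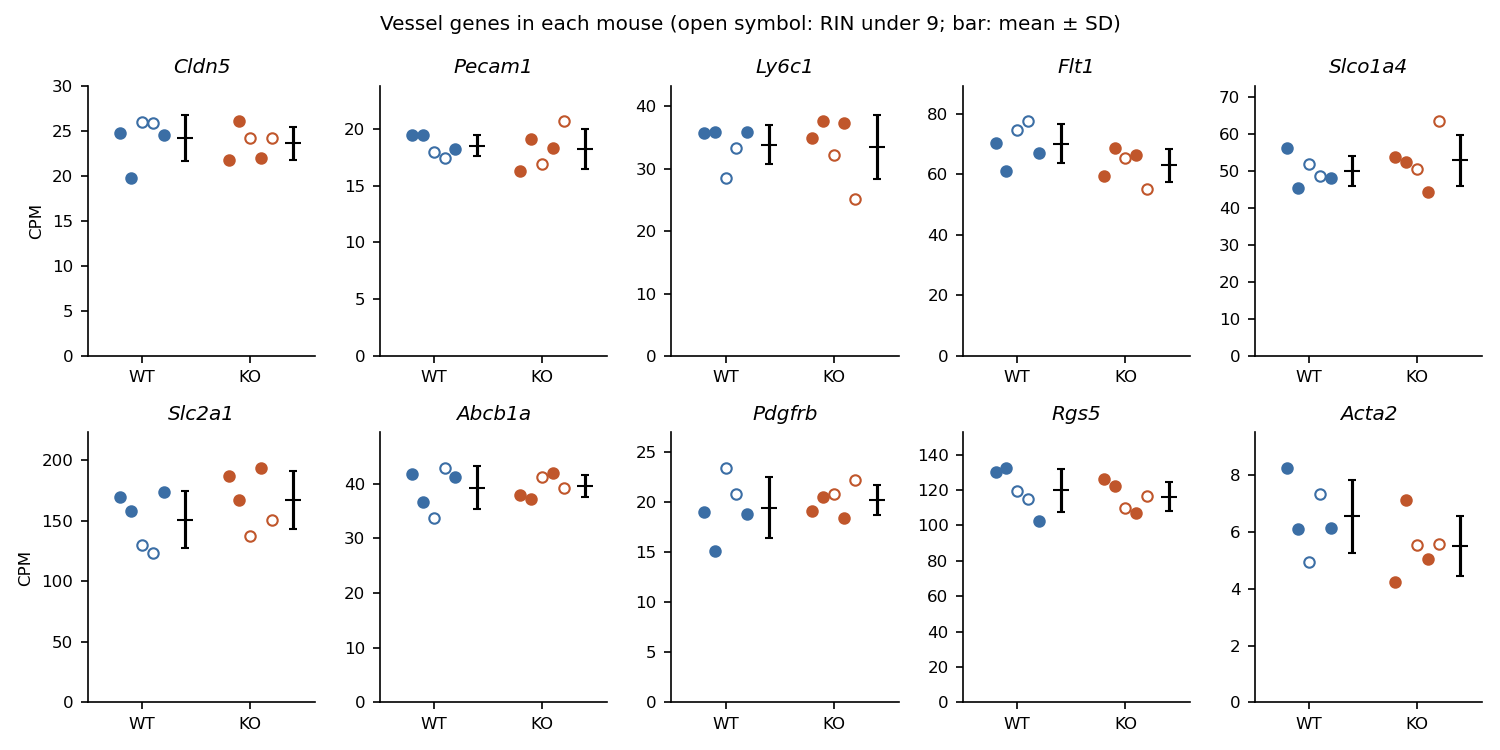
CPM (vertical axis, from 0) of each vessel gene in the 5 WT and 5 KO mice, 1 point per mouse, with mean ± SD beside the points and open symbols for mice with a RIN under 9. The genotypes overlap in every panel, and the open symbols lie below all filled ones for Slc2a1 and Ly6c1 and above them for Pdgfrb.

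The 10 genes differed widely in level. Compared per length of their exons in the Gencode M21 annotation (RPKM, CPM divided by exon kilobases), *Slc2a1* was the highest at 45.4 RPKM over the 10 mice, followed by *Rgs5* at 26.0 and *Ly6c1* at 20.1. *Cldn5* followed at 16.9, *Slco1a4* at 8.01 and *Abcb1a* at 7.19 RPKM. The lowest were *Flt1* at 4.93, *Pdgfrb* at 3.61, *Pecam1* at 2.95 and *Acta2* at 2.75 RPKM. The median over all tested genes with a length was 5.55 RPKM, so 6 of the vessel genes lay above it. *Slc2a1* exceeded *Rgs5* in 10 of 10 mice, and *Cldn5* exceeded *Slco1a4* in 10 of 10. The 9 pairs of neighbours in this order were compared within mice by a two-sided exact permutation test of the log2 ratio, chosen after the data were seen. *Pecam1* and *Acta2* did not differ beyond their spread (difference 0.204 ± 0.516 RPKM, mean ± SD over 10 mice, exact permutation p = 0.156, in the stated order in 7 of 10). Some mice also crossed for *Ly6c1* and *Cldn5* (8 of 10 in the stated order), *Slco1a4* and *Abcb1a* (7 of 10) and *Pdgfrb* and *Pecam1* (9 of 10). Their differences were 3.17 ± 3.17, 0.822 ± 1.08 and 0.664 ± 0.482 RPKM and passed the permutation test, with p adjusted over the 9 pairs of 0.0276, 0.0483 and 0.00879. The test covers the spread between mice only, and an error in the exon length of a gene would be shared by all 10 mice. The spread between mice was smallest for *Pecam1* (coefficient of variation 7.23%) and largest for *Acta2* (20.5%).

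The windows upstream of 4 endothelial genes are shown because the results turn on these genes. *Slc2a1* and *Flt1* had the smallest p of the 10 genes and pointed in opposite directions, *Ly6c1* varied between mice in the same direction as *Slc2a1*, and *Cldn5* in the same direction as *Flt1*. Each is the 250 bases before the start of the gene in RefSeq (GRCm38.p6), 5′ to 3′ on the gene's strand, and capitals mark the motifs searched on both strands.
Slc2a1, chr4:119108495-119108744, plus strand: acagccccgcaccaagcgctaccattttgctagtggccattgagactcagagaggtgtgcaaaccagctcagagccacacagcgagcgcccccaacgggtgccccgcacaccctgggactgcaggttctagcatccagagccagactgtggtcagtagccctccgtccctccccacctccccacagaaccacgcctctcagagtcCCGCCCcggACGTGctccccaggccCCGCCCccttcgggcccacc
Ly6c1, chr15:75048838-75049087, minus strand: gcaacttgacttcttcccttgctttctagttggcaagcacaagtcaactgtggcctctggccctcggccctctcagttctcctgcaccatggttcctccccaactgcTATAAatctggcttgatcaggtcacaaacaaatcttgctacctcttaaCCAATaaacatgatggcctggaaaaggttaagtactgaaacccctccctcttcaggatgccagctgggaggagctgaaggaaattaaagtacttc
Flt1, chr5:147726012-147726261, minus strand: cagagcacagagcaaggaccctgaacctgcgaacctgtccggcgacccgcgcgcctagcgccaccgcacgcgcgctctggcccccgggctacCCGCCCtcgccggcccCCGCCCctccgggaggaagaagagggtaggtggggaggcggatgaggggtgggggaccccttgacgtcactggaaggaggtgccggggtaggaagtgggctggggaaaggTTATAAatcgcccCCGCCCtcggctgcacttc
Cldn5, chr16:18776597-18776846, plus strand: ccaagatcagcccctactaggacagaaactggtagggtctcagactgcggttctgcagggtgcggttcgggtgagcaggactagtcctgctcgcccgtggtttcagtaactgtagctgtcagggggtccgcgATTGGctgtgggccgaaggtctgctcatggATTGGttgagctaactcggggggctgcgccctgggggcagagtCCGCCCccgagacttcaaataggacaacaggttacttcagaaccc
The motifs were ACGTG (the core that hypoxia-inducible factors read), GGGCGG (Sp1), CCAAT (the CCAAT box), TATAA (the TATA box) and the CArG box of serum response factor. RefSeq windows were matched for 8 of the 10 genes and not for *Pecam1* and *Pdgfrb*. The starts in RefSeq and M21 differed by 0 bases for *Flt1*, *Cldn5* and *Rgs5*, 7 for *Ly6c1*, 21 for *Slco1a4* and 34 for *Slc2a1*, whose window therefore ends inside the M21 gene. They differed by 217 bases for *Acta2* and by 92986 for *Abcb1a*, whose window is thus not at its M21 start, and both are counted among the 8. ACGTG was found in 1 of the 8 windows, that of *Slc2a1*, ending 32 bases before the RefSeq start, and in 16.6% of all 32851 windows. The *Slc2a1* window also held 2 matches of GGGCGG, and that of *Flt1* held 3, the motif being present in 3 of the 8 and in 32.7% of all windows. CCAAT was found in 4 of the 8, including *Cldn5* with 2 matches and *Ly6c1* with 1, and in 33.8% of all windows. TATAA was found in *Flt1*, the nearest match ending 27 bases before the RefSeq start, in *Ly6c1*, ending 139 bases before it, and in 22.8% of all windows. The strict CArG box, in which CC and GG flank a run of A or T, was found in 0 of the 8 windows and in 1.47% of all windows. With 1 letter allowed to differ, a search chosen after the data were seen, it was found in 2 of the 8, *Acta2* with 2 matches and *Slco1a4* with 1, and in 18.6% of all windows. The windows of *Slc2a1* and *Flt1* were 66.4% and 70.4% G or C, that of *Ly6c1* 48.4%, and the median of all windows was 52.4%. A match is a description of the letters and not evidence of binding.

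The genes of the endothelial junction and surface showed no difference between genotypes that passed the threshold. *Cldn5* (chr16:18776847-18778262, GRCm38) encodes claudin-5, the main sealing protein of the barrier's tight junctions. The CPM of *Cldn5* were 21.8, 26.1, 24.3, 22.0 and 24.2 in KO mice 1 to 5 and 24.9, 19.8, 26.0, 25.9 and 24.6 in WT mice 1 to 5. WT mouse 2 was the lowest of all, the other 4 WT mice lay within 24.6 to 26.0, and KO mice spread across both. The means were 23.7 ± 1.81 CPM in KO and 24.2 ± 2.57 CPM in WT mice (SD over 5 mice each), with a log2 fold change of -0.12 (SE 0.0653, 95% interval -0.26 to 0.02, adjusted p = 0.56).

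*Pecam1* (chr11:106654217-106750628), which encodes the adhesion molecule CD31 at endothelial contacts, was among the steadiest of the 10. The CPM of *Pecam1* were 16.3, 19.1, 16.9, 18.3 and 20.7 in KO mice 1 to 5 and 19.5, 19.4, 18.0, 17.4 and 18.2 in WT mice 1 to 5. Both the lowest and the highest mouse were KO mice, 1 and 5. For *Pecam1* the log2 fold change was -0.06 (95% interval -0.22 to 0.10, adjusted p = 0.838). *Ly6c1* (chr15:75044018-75048830), which encodes a GPI-anchored surface protein of brain endothelium, was at 33.5 ± 5.14 CPM in KO and 33.9 ± 3.19 CPM in WT mice. The CPM of *Ly6c1* were 35.0, 37.6, 32.2, 37.4 and 25.2 in KO mice 1 to 5 and 35.7, 35.9, 28.5, 33.4 and 35.9 in WT mice 1 to 5. The 4 lowest were KO mice 3 and 5 and WT mice 3 and 4, the mice with a RIN under 9. The log2 fold change of *Ly6c1* was 0.07 (95% interval -0.06 to 0.19, adjusted p = 0.758) with the surrogate variables and -0.02 with genotype alone. The near-identical gene *Ly6c2* did not pass the filter on low counts, and since multi-mapped reads were removed, the count of *Ly6c1* rests on the bases that tell the copies apart.

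*Flt1* (chr5:147561604-147726011) encodes VEGF receptor 1, which binds VEGF-A tightly and limits its signal. The CPM of *Flt1* were 59.6, 68.8, 65.3, 66.3 and 55.0 in KO mice 1 to 5 and 70.5, 61.2, 74.7, 77.6 and 67.1 in WT mice 1 to 5. The 3 highest were WT mice 4, 3 and 1 and the 2 lowest were KO mice 5 and 1, with overlap between them. The means were 63.0 ± 5.57 CPM in KO and 70.2 ± 6.45 CPM in WT mice (SD, n = 5 each). The log2 fold change was -0.17 (SE 0.0604, 95% interval -0.30 to -0.05), which did not pass the threshold (adjusted p = 0.264). Within the mice of RIN under 9 the log2 ratio of KO to WT means was -0.34 (2 mice each), and within those at 9.5 or above it was -0.03 (3 each), a difference between the classes that was not tested. Each of the 25 alternative settings gave a value below 0, and none called it.

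*Slc2a1* had the smallest p of the 10 genes and was called in some settings. It lies at chr4:119108711-119137983 and encodes GLUT1, the carrier that brings glucose across the barrier, which astrocytes make as well. The CPM of *Slc2a1* were 187, 167, 137, 194 and 150.4 in KO mice 1 to 5 and 170.1, 158, 130.0, 123 and 174 in WT mice 1 to 5. The genotypes overlapped across most of this range, although the 2 highest were KO mice 4 and 1 and the 2 lowest WT mice 4 and 3. The means were 167 ± 23.9 CPM in KO and 151 ± 23.2 CPM in WT mice (SD, n = 5 each). The log2 fold change was 0.25 (SE 0.0697, 95% interval 0.10 to 0.40) with an adjusted p = 0.136.

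The call on *Slc2a1* depended on the model and on single mice. With 4 surrogate variables it was called (log2 fold change 0.33, adjusted p = 0.0085 in edgeR), and with genotype alone it was not (0.14, adjusted p = 0.787). It was also called without KO mouse 2 (adjusted p = 0.0031), KO mouse 4 (0.046), KO mouse 5 (0.0027), WT mouse 1 (0.034) or WT mouse 5 (0.0057), where the log2 fold change lay between 0.29 and 0.41. Without KO mouse 3 the log2 fold change was 0.29 and the adjusted p = 0.112. The value stayed above 0 in all 25 alternatives. Within the mice of RIN under 9 the log2 ratio of KO to WT means was 0.18 (2 mice each), and within those at 9.5 or above it was 0.13 (3 each).

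**Figure D2:**
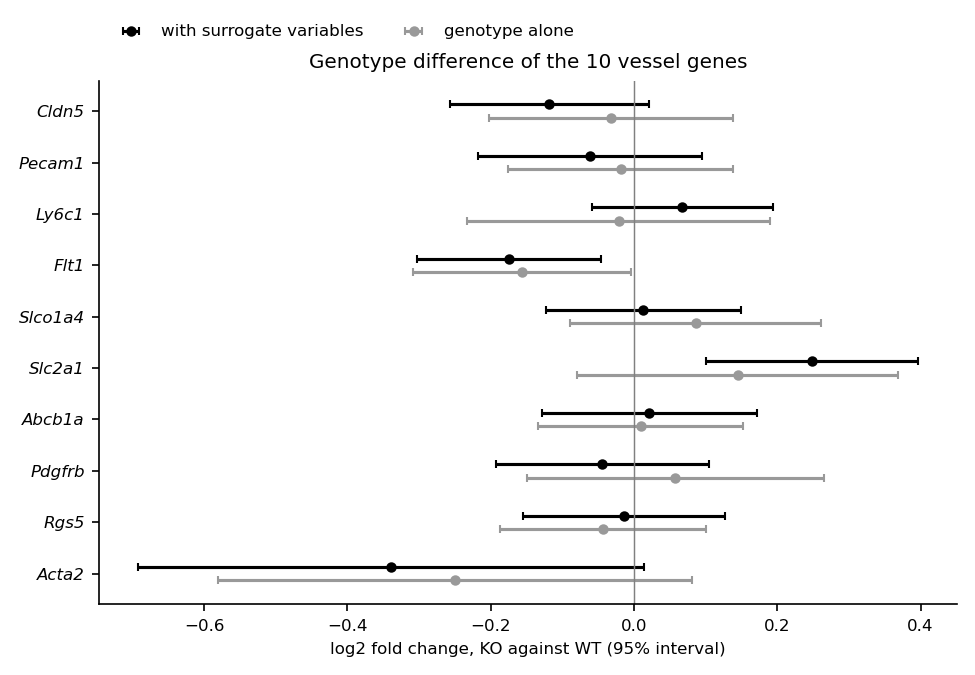
Log2 fold change of KO against WT (horizontal axis) with its 95% interval for each vessel gene, from edgeR with 3 surrogate variables (black) and with genotype alone (grey). Slc2a1 lies above 0 at 0.25 and Flt1 below 0 at -0.17 with surrogate variables, the interval of Slc2a1 crosses 0 with genotype alone, and that of Acta2 is the widest.

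The other barrier transporters lay close to 0. *Slco1a4* (chr6:141805440-141856199) encodes an organic anion carrier of brain endothelium. The CPM of *Slco1a4* were 53.9, 52.3, 50.5, 44.3 and 63.4 in KO mice 1 to 5 and 56.0, 45.3, 51.7, 48.5 and 48.0 in WT mice 1 to 5. The highest and the lowest value were both in KO mice, 5 and 4. Its log2 fold change was 0.01 (95% interval -0.12 to 0.15, adjusted p = 0.971). *Abcb1a* (chr5:8660077-8748575) encodes P-glycoprotein, the pump that returns drugs to the blood. The CPM of *Abcb1a* were 38.0, 37.2, 41.2, 41.9 and 39.3 in KO mice 1 to 5 and 41.7, 36.7, 33.8, 42.9 and 41.3 in WT mice 1 to 5. The KO mice lay within the range of the WT mice. Its log2 fold change was 0.02 (95% interval -0.13 to 0.17, adjusted p = 0.955).

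Of the mural genes, neither pericyte marker differed beyond the spread between mice. *Pdgfrb*, on chromosome 18, encodes the receptor that keeps pericytes on the capillary. The CPM of *Pdgfrb* were 19.1, 20.5, 20.8, 18.4 and 22.1 in KO mice 1 to 5 and 19.0, 15.1, 23.4, 20.8 and 18.8 in WT mice 1 to 5. WT mice 2 and 3 were the lowest and the highest, so the KO mice lay inside the WT range. The means were 20.2 ± 1.47 CPM in KO and 19.4 ± 3.03 CPM in WT mice. Genotypes differed by a log2 fold change of -0.04 (95% interval -0.19 to 0.10, adjusted p = 0.889) with the surrogate variables and of 0.06 with genotype alone. *Rgs5* (chr1:169655501-169695813) encodes a regulator of G-protein signalling that is abundant in pericytes and smooth muscle. The CPM of *Rgs5* were 126, 122, 109.5, 107 and 117 in KO mice 1 to 5 and 130.0, 133, 119, 115 and 103 in WT mice 1 to 5. WT mice 2 and 1 were the highest and WT mouse 5 the lowest, with the KO mice between them. Its means were 116 ± 8.27 CPM in KO and 119.8 ± 12.2 CPM in WT mice, with a log2 fold change of -0.01 (95% interval -0.16 to 0.13, adjusted p = 0.969).

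*Acta2* (chr19:34241090-34255590), which encodes the smooth muscle actin of arterioles, had the largest estimate and the widest interval of the 10. The CPM of *Acta2* were 4.24, 7.14, 5.55, 5.05 and 5.57 in KO mice 1 to 5 and 8.27, 6.10, 4.93, 7.34 and 6.14 in WT mice 1 to 5. WT mice 1 and 4 and KO mouse 2 were the highest, and KO mouse 1 the lowest with 150 counts, the smallest count of any of the 10 genes in any mouse. The means were 5.51 ± 1.06 CPM in KO and 6.56 ± 1.28 CPM in WT mice (SD, n = 5 each). The log2 fold change was -0.34 (SE 0.166, 95% interval -0.69 to 0.01, adjusted p = 0.492). It was below 0 in all 25 alternatives and called in none. The actin genes are close copies of each other in their coding part, so its count of uniquely mapped reads may cover only part of the gene.

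Some vessel genes differed between mice of lower and higher RNA integrity. A model of genotype and RIN, chosen after the data were seen, was used to test the change per unit of RIN. It called 1 of the 10 vessel genes, *Slc2a1*, against 0.397% of all tested genes, and 3 of the 10 had an unadjusted p under 0.05, against 11.1%. For 3 of the 10, *Slc2a1*, *Ly6c1* and *Pdgfrb*, the CPM of the RIN classes did not overlap, against 2.5% of all tested genes. *Slc2a1* was at 123 to 150.4 CPM in the 4 mice of RIN under 9 and at 158 to 194 CPM in the 6 mice at 9.5 or above (log2 change 0.25 per unit of RIN, SE 0.0383, adjusted p = 0.0162 in edgeR). That call was lost without WT mouse 3 (adjusted p = 0.0862) or WT mouse 4 (0.0793) and held without each of the other 8 mice in turn. *Ly6c1* was at 25.2 to 33.4 CPM in the lower class and 35.0 to 37.6 CPM in the upper class (log2 change 0.20 per unit, adjusted p = 0.0836). *Pdgfrb* lay the other way, at 20.8 to 23.4 CPM and 15.1 to 20.5 CPM (log2 change -0.17 per unit, adjusted p = 0.21). Each class held both genotypes, 2 KO and 2 WT mice below and 3 of each above, so RIN and genotype can be told apart here.

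**Figure D3:**
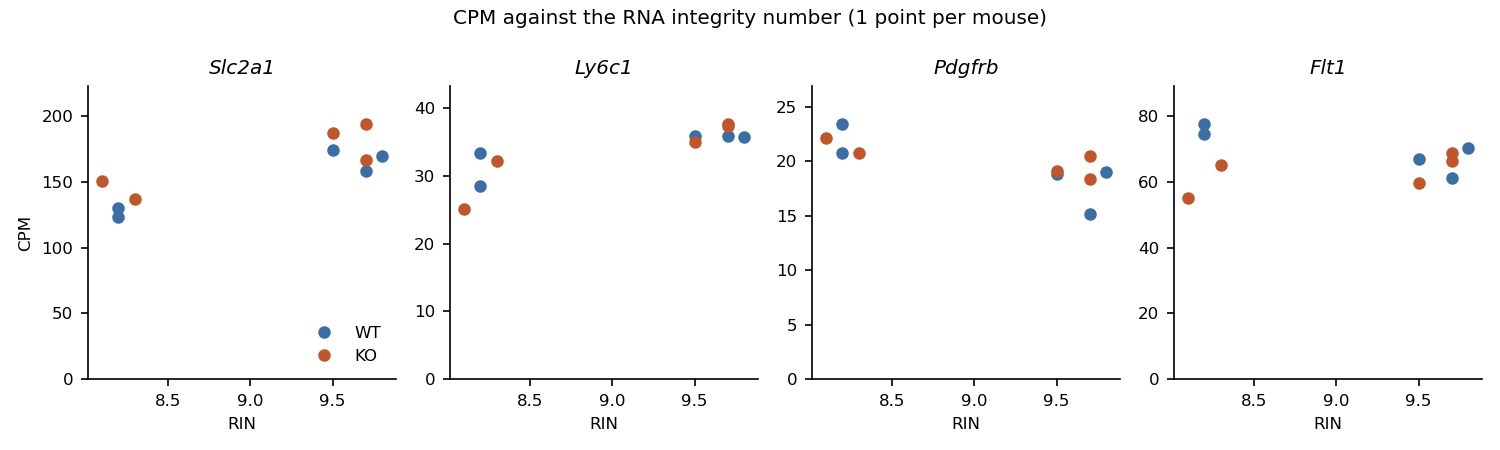
CPM (vertical axis, from 0) of Slc2a1, Ly6c1, Pdgfrb and Flt1 against the RIN of each mouse's RNA (horizontal axis), KO and WT in separate colours. The 4 mice at a RIN of 8.1 to 8.3 lie below the other 6 for Slc2a1 and Ly6c1 and above them for Pdgfrb, and for Flt1 the classes overlap.

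The 10 genes did not vary together from mouse to mouse. Deviations of log2(CPM + 1) from the genotype mean were correlated over the 10 mice, as a description only, since all values of a mouse share 1 library and its RNA quality. Of the 45 pairs, 24 had a positive r, and the median was 0.08. The highest was *Cldn5* with *Pdgfrb* (0.86), an endothelial and a mural gene, followed by *Cldn5* with *Flt1* (0.64) and *Ly6c1* with *Slc2a1* (0.63). The lowest were *Ly6c1* with *Slco1a4* (-0.66), *Ly6c1* with *Pdgfrb* (-0.66) and *Slc2a1* with *Pdgfrb* (-0.64). The pairs that include both *Slc2a1* or *Ly6c1* and *Pdgfrb* are those that the RIN classes separate in opposite directions. *Cldn5* and *Slc2a1*, both endothelial, had an r of -0.48. Each endothelial gene followed the mean of the 7 only in part, with r between 0.19 and 0.54 although each is part of that mean, while *Acta2*, which is not, had 0.76. The 5 genes most like the endothelial mean were *Rcan3* (0.93), *Rasl10b*, *Srprb*, *Ppp4c* and *Pltp* (0.90 each), and those most like the mural mean were *Phc2* (0.98), *Fdxr* (0.93), *Itga6* and *Igsf10* (0.92 each) and *Sh3bp4* (0.91). These are the highest of all tested genes over 10 mice. *Srprb*, *Pltp* and *Igsf10* share exon bases with another gene, so their counts are less certain.

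**Figure D4:**
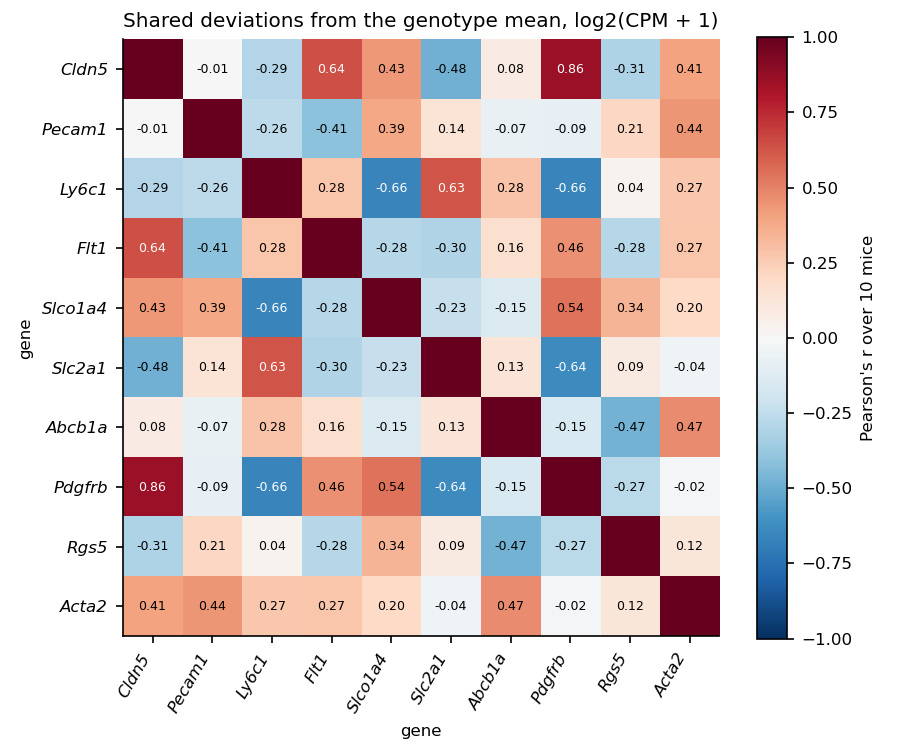
Pearson's r (colour, from -1 to 1, with the value in each cell) between pairs of vessel genes on both axes, over the deviations of the 10 mice from their genotype mean of log2(CPM + 1). High values are scattered and no endothelial or mural block stands out, with 0.86 for Cldn5 and Pdgfrb and -0.66 for Ly6c1 and Pdgfrb.

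Other genes of the vessel wall were read in 9 lists, of 127 genes in all, of which 120 passed the filter on low counts, a gene in more than 1 list being counted once. Of these 120, 3 were called higher in KO mice, against 0.6% of all tested genes, and 2 lower, against 0.244%. At an unadjusted p under 0.05, 9 lay higher and 15 lower, against 5.51% and 5.1% of all tested genes. The counts at an unadjusted p given below for single lists stand beside the 10.6% of all tested genes that passed in either direction. All 5 called genes overlapped between the genotypes in CPM.

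*Fzd4* encodes the Frizzled receptor for Norrin and Wnt on endothelium. The CPM of *Fzd4* were 23.8, 23.3, 19.9, 24.4 and 21.7 in KO mice 1 to 5 and 19.1, 20.7, 15.6, 15.0 and 21.2 in WT mice 1 to 5. KO mouse 3 was the single KO mouse below any WT mouse. Its log2 fold change was 0.39 (SE 0.0729, adjusted p = 0.0153). *Mfsd2a* encodes the lipid carrier that keeps vesicle traffic low in barrier endothelium. The CPM of *Mfsd2a* were 41.0, 41.2, 36.1, 36.8 and 31.7 in KO mice 1 to 5 and 32.8, 27.4, 28.1, 29.5 and 33.0 in WT mice 1 to 5. KO mouse 5 alone lay within the WT range. For *Mfsd2a* the log2 fold change was 0.34 (SE 0.072, adjusted p = 0.0371). *Cd34*, a sialomucin of endothelium, was at 132 ± 13.4 CPM in KO and 119 ± 4.75 CPM in WT mice (log2 fold change 0.18, adjusted p = 0.021), and KO mouse 2, at 109 CPM, was below every WT mouse.

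*Apln* encodes apelin, a secreted ligand made by tip cells of growing vessels and by some neurons. The CPM of *Apln* were 24.0, 31.6, 26.0, 32.2 and 25.8 in KO mice 1 to 5 and 37.1, 39.7, 30.7, 33.4 and 40.3 in WT mice 1 to 5. KO mice 2 and 4 lay above WT mouse 3 and the others were lower than every WT mouse. *Apln* had a log2 fold change of -0.35 (SE 0.0627, adjusted p = 0.011). *Tfrc*, the transferrin receptor that carries iron across the barrier and is made by other brain cells too, was at 185 ± 13.4 CPM in KO and 203 ± 8.51 CPM in WT mice (log2 fold change -0.16, adjusted p = 0.0308).

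These 5 calls depended on the surrogate variables and on which mice were included. Leaving out 1 mouse at a time, the log2 fold change ran from 0.33 to 0.53 for *Fzd4*, from 0.29 to 0.40 for *Mfsd2a*, from 0.15 to 0.23 for *Cd34*, from -0.37 to -0.24 for *Apln* and from -0.20 to -0.15 for *Tfrc*. With genotype alone, which called 30 of all 14344 tested genes, 0 of the 120 genes were called. In limma with the surrogate variables, which called 8 of the 14344, 0 of the 120 were called as well. DESeq2 called 7 of the 120 and 233 of the 14344. Leaving out KO mouse 1 or WT mouse 3 ended all 5 calls, at adjusted p from 0.0511 to 0.157 and from 0.0737 to 0.208 in edgeR. Without KO mouse 3, *Apln* remained called (adjusted p = 0.0418), and *Fzd4*, *Mfsd2a*, *Cd34* and *Tfrc* were not (0.0583, 0.0682, 0.0911 and 0.113). Without KO mouse 4, the calls on *Mfsd2a* (0.0522), *Tfrc* (0.0686) and *Cd34* (0.152) ended, and without KO mouse 5 that on *Cd34* (0.0635). Without WT mouse 4, those on *Fzd4* (0.106), *Tfrc* (0.125) and *Mfsd2a* (0.131) ended, and without WT mouse 5 those on *Cd34* (0.179) and *Apln* (0.412). The direction of each of the 5 was the same in all 25 alternatives.

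**Figure D5:**
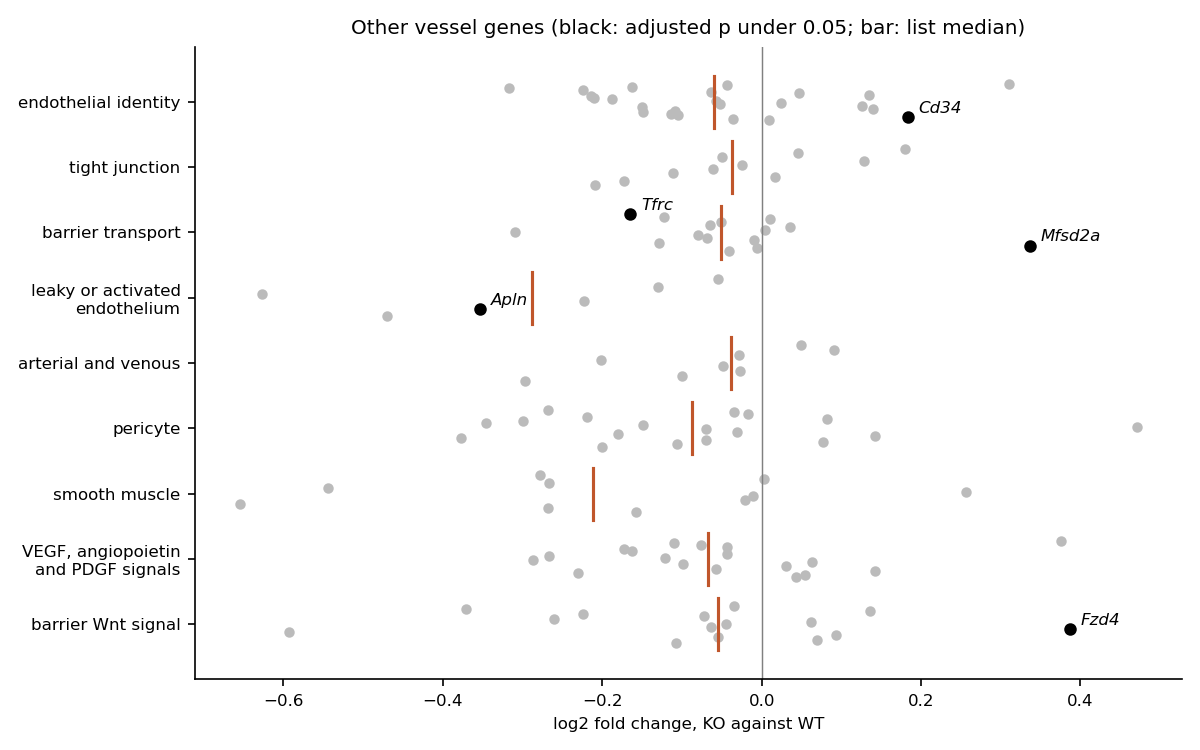
Log2 fold change of KO against WT (horizontal axis) for the other vessel genes tested, 1 point per gene in rows by list, with called genes in black and the list median as a bar. Fzd4, Mfsd2a and Cd34 lie above 0 and Apln and Tfrc below, and the medians of the 9 lists lie between -0.29 and -0.04.

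By list, the medians were below 0 in all 9, between -0.29 and -0.04, but with genotype alone they were nearer 0 and those of the tight junction and arterial and venous lists turned to 0.01 and 0.03. Of 24 genes of endothelial identity, 16 had log2 fold changes below 0 and 1 was called (*Cd34*). An unadjusted p under 0.05 was found for 5, with 3 above 0 (*Cd34*, *Vwf* and *Ptprb*) and 2 below (*Podxl* and *Ly6a*). All but *Cd34* are named here after their values were seen. Log2 fold changes were 0.31 for *Vwf* (adjusted p = 0.0868 in edgeR), -0.21 for *Podxl* (0.241) and -0.19 for *Ly6a* (0.372). For *Vwf*, KO mouse 5 was at 40.3 CPM, and the other KO mice, at 16.4 to 20.5 CPM, lay within the WT range of 12.2 to 20.6 CPM. *Ptprb*, a phosphatase of endothelium, was the single one of the 120 whose genotypes did not overlap, against 1.58% of all tested genes (62.4 ± 2.88 CPM in KO and 55.7 ± 2.94 CPM in WT mice, adjusted p = 0.322). Of 10 tight junction genes, 0 were called by edgeR and 1 had an unadjusted p under 0.05. The highest of that list, *Tjp1*, which encodes the scaffold ZO-1, was at 133 ± 6.73 CPM in KO and 131 ± 6.14 CPM in WT mice. Of 15 barrier transport genes, *Mfsd2a* and *Tfrc*, the highest of them, were called in opposite directions. *Bsg*, which encodes the surface protein basigin, was the highest of the endothelial identity list, at 348 ± 16.0 CPM in KO and 351 ± 4.69 CPM in WT mice. The arterial and venous list had 0 of 8 tested genes called and 0 at an unadjusted p under 0.05, *Gja4*, the connexin with its smallest p, being at 2.39 ± 0.73 CPM in KO and 2.55 ± 0.311 CPM in WT mice and *Efnb2*, its highest, at 70.0 ± 4.03 and 68.8 ± 3.63 CPM.

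The list of leaky or activated endothelium had the lowest median, at -0.29. Of its 9 genes, *Sele*, *Selp* and *Esm1* did not pass the filter, and the 6 tested (*Apln*, *Icam1*, *Cav1*, *Plvap*, *Vcam1* and *Angpt2*) all had log2 fold changes below 0, 1 of them called (*Apln*) and 3 with an unadjusted p under 0.05. With genotype alone 5 of the 6 were below 0 and the median was -0.16. The summed CPM of the list was 68.9 to 82.2 in KO and 81.6 to 92.1 in WT mice, of which *Apln* alone held means of 27.9 and 36.3 CPM. *Icam1* and *Angpt2* were low, *Icam1* at 1.61 ± 0.84 CPM in KO and 2.08 ± 0.496 CPM in WT mice. *Angpt2* was at 1.00 ± 0.952 and 0.833 ± 0.302 CPM, so its KO mean lay above its WT mean although its fitted value was below 0. The smooth muscle list, with 10 of 13 genes tested, had a median of -0.21, 8 genes below 0 and 0 called by edgeR. Its unadjusted p fell under 0.05 for 3, *Mylk*, the myosin light chain kinase (0.26, adjusted p = 0.328), *Smtn* (-0.27, 0.346) and *Cald1*, its highest gene (-0.16, 0.453). The other 7 tested genes of the list, named after their values were seen, had log2 fold changes of -0.65 for *Lmod1*, -0.54 for *Pln*, -0.28 for *Tpm2*, -0.27 for *Des*, -0.02 for *Myh11*, -0.01 for *Myl9* and 0.00 for *Tagln*. Of these, *Lmod1*, *Pln* and *Des* were low, at 0.605 to 1.29 CPM in the genotype means.

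Of 18 further pericyte genes, 0 were called and 2 had an unadjusted p under 0.05, both below 0, with *Mcam* the smaller (-0.35, adjusted p = 0.164 in edgeR). *Mcam* (chr9:44134469-44142727) lies on the same chromosome as *Zbtb16* (chr9:48654297-48836222), and any part of this linkage in its value was not tested. *Vtn*, the highest of the 18, was at 48.0 ± 2.66 CPM in KO and 48.4 ± 4.96 CPM in WT mice. Of 18 genes for VEGF, angiopoietin and PDGF signals, 0 were called and 3 had an unadjusted p under 0.05. The smallest p was that of *Pdgfb*, the ligand of PDGFRβ (26.1 ± 2.11 CPM in KO and 32.9 ± 6.81 CPM in WT mice, log2 fold change -0.29, adjusted p = 0.246), while the highest was *S1pr1*, a lipid receptor of endothelium and astrocytes, at 143 ± 9.72 and 147 ± 10.3 CPM. Of 15 genes of the barrier Wnt signal, *Fzd4* was called and 5 had an unadjusted p under 0.05, against 10.6% of all tested genes. Of those 5, *Fzd4* and *Ctnnb1* lay above 0 and 3 lay below, as did 10 of the 15. The 3 were *Foxq1* (-0.59, adjusted p = 0.0803 in edgeR), *Wnt7a* (-0.37, 0.252) and *Ndp* (-0.26, 0.464), named after their values were seen. The highest of the 15, *Ctnnb1*, which encodes β-catenin, had a log2 fold change of 0.09 (adjusted p = 0.186), and its exons share bases with *Ulk4* on the opposite strand.

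Markers of other cells that the tissue could hold were summed in the same mice, and their part in the vessel results was not tested. The red cell sum was 32.0 to 143 CPM in KO and 27.7 to 59.5 CPM in WT mice, the highest being KO mouse 5, and the fibroblast sum was 55.8 to 114 and 59.9 to 87.8 CPM. Of the 12 fibroblast genes 12 were tested, of the 7 red cell genes 5, of the 8 choroid plexus genes 6 and of the 7 perivascular macrophage genes 7, and 0 were called in each list. The choroid plexus sum was 2.96 to 6.29 CPM in KO and 2.64 to 4.65 CPM in WT mice, and the perivascular macrophage sum 7.56 to 13.7 and 9.78 to 11.9 CPM. The microglial sum was 303 to 334 and 285 to 317 CPM, the astrocyte sum 5251 to 6156 and 5534 to 6177 CPM, and the oligodendrocyte sum 6121 to 8867 and 6336 to 7956 CPM. The striatal neuron sum was 329 to 493 and 298 to 594 CPM, and that of cortical excitatory neurons 2140.5 to 2539.97 and 2050.4 to 2338 CPM. All these sums overlapped between the genotypes. Of 9 striatal neuron genes tested, 7 had log2 fold changes above 0, with a median of 0.21, and 0 were called by edgeR. An unadjusted p under 0.05 was found for 5 of the 9, all higher in KO mice, against 5.51% of all tested genes. *Kcnj10*, a potassium channel of the astrocyte endfeet that ensheath vessels, was the single gene of these lists called, at 189 ± 24.9 CPM in KO and 238 ± 17.4 CPM in WT mice without overlap (log2 fold change -0.27, adjusted p = 0.0148 in edgeR). The call ended with genotype alone (adjusted p = 0.2) and without KO mouse 1 (0.0723), 3 (0.0852) or 4 (0.0613) or WT mouse 3 (0.0769) or 5 (0.131). Of 17 paralogs of the 10 vessel genes, 10 were tested, 0 were called by edgeR and 3 had an unadjusted p under 0.05.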

How the data were processed

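Libraries were made with TruSeq Stranded mRNA and sequenced as paired ends. The authors aligned reads to mm10 with STAR 2.7.1a, removed multi-mapped reads and counted exons of protein-coding genes (Gencode M21) with HTSeq 0.9.1, and they deposited these counts without normalization. How strand was handled in counting is not given in the sources used here. From the deposited counts, CPM were scaled by TMM, and genotypes were compared with edgeR 4.0.16 (R 4.3.3; quasi-likelihood test, filterByExpr, Benjamini-Hochberg) on genotype and 3 surrogate variables from sva 3.50.0 (log2(CPM + 1), seed 1). Alternatives used DESeq2 1.42.0 and limma 3.58.1. Scripts were tested on simulated counts. Floors cover counting error only, since reads carry no molecular identifiers. The smallest chi-square per degree of freedom between 2 libraries was 5.67, so none was a copy.

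RPKM used the exon lengths of M21, matched by symbol for 94.8% of tested genes. Figures were drawn with matplotlib 3.10.9.

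Members and lists were chosen with earlier results of these data known. Named were the 10 genes, Zbtb16, each list's called genes, highest gene and smallest p, and the 5 most alike genes per class. Smtn, Ptprb, Podxl, Ly6a, Vwf, Foxq1, Wnt7a and Ndp fall outside this rule, as do the remaining tested smooth muscle and leaky endothelium genes. All of these were named after their values were seen. For lists of other cells, sums and called genes are given instead, and 1 gene that the rule names is not reported here. Replicate numbers join different mice. Protein sequences were not analysed here.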

Additional observations from a re-analysis of the deposited data

Results flagged for a closer look

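In Dixon's test of the highest and lowest mouse of each genotype, run on 80 groups of 5 mice, 5 groups held a mouse far from the others, and chance alone gives about 1 in 20. For Cldn5, WT mouse 2 was low at 19.8 CPM against 24.6 to 26.0 CPM in the other WT mice. For Cd34, KO mouse 2 was low at 109 CPM against 134 to 142 CPM in the other KO mice. For Bsg, KO mouse 5 was high at 376 CPM against 336 to 343 CPM. For the haemoglobin gene Hbb-bs, KO mouse 5 was high at 83.9 CPM against 19.0 to 28.8 CPM in the other KO mice, and WT mouse 2 was low at 16.7 CPM against 31.9 to 37.1 CPM in the other WT mice.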

How the results depend on the processing

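The median log2 fold change of the 10 vessel genes stayed below 0 in all 25 alternatives, between -0.06 and -0.006. Counts of calls depended on the setting (all tested genes, vessel genes, other vessel genes). They were 121, 0 and 5 as reported, 30, 0 and 0 with genotype alone, 34, 0 and 0 with 1 surrogate variable, 57, 0 and 2 with 2, 123, 1 and 4 with 4, 233, 0 and 7 in DESeq2 and 8, 0 and 0 in limma. With RIN as the covariate they were 38, 0 and 0, and in mice of RIN 9.5 or above alone 1, 0 and 0. Without KO mouse 3 and without surrogate variables they were 13, 0 and 0. In settings chosen after seeing the data they were 0, 0 and 0 in mice of RIN under 9 alone and 97, 1 and 3 without KO mice 3 and 5. With 1 mouse left out at a time they were 39 to 248, 0 to 1 and 0 to 6. Other normalizations and no filter changed none of the 3 counts by over 1.5 times. The vessel gene called was Slc2a1 in each case.

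With the replicate number as a block the counts were 24, 0 and 0, Ly6c1 had a log2 fold change of -0.028 and Pdgfrb 0.066. Same-numbered mice correlated between -0.11 and 0.17 in their deviations, so the numbers do not pair the mice.

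Values that changed sign were small and none was called, and the cause was not tested. Leaving out 1 mouse, the log2 fold change of Slco1a4 ran from -0.070 to 0.112, Abcb1a from -0.053 to 0.083 and Rgs5 from -0.074 to 0.076. Pdgfrb was 0.058 with genotype alone, 0.016 with 1 and 0.025 with 2 surrogate variables, 0.059 with RIN as the covariate, 0.136 at RIN 9.5 or above, and 0.047 without KO mouse 3 and surrogate variables. Ly6c1 was -0.021 with genotype alone, -0.023 with RIN, -0.0078 without KO mouse 3 and surrogate variables and -0.115 at RIN under 9. Abcb1a was -0.016 and Rgs5 0.067 with 4 surrogate variables, and -0.0013 and 0.0092 without KO mice 3 and 5. At RIN 9.5 or above, Cldn5 was 0.019 and Abcb1a -0.028. Without KO mouse 3 and surrogate variables, Pecam1 was 0.0078 and Abcb1a -0.0059, and Pecam1 was 0.091 at RIN under 9.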
